A study of Mus musculus with 6 samples.

Results

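The GIMAP genes, whose name stands for GTPases of the immunity-associated proteins, were described in mouse CD8+ T cells cultured with a proteasome activator or a proteasome inhibitor. They encode a family of proteins that share a GTP-binding domain of the AIG1 type, and they are expressed mainly in lymphocytes. The family is known for its part in the survival and homeostasis of T cells: mice and rats without a functional Gimap5 lose peripheral T cells, and Gimap3 and Gimap5 have been placed with BCL2 family proteins at internal membranes. Some members bind and hydrolyse GTP, whereas others lack parts of the catalytic machinery and are thought to act as partners of other members.

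The members were 8 mouse genes, Gimap1, Gimap3, Gimap4, Gimap5, Gimap6, Gimap7, Gimap8 and Gimap9, taken by their symbol on the array under an old or a current name. The family was chosen by earlier results of these same arrays, namely by the intensities of its probes with E9, epoxomicin and DMSO. The values of the members in all 3 comparisons are therefore a description, and no p-value of a member is printed. Where members are said to pass, are counted at a threshold or have an interval, that is also description and not support. Of the 8 genes, 7 were represented by 11 probes and entered the fit, out of 13524 genes tested. No probe of Gimap3 was found here.

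Total RNA was measured on 6 Illumina bead arrays, 2 for each of 3 groups of CD8+ T lymphocytes from spleens of 6-week-old C57BL/6 mice. The E9 group was pre-treated with 1.0 µM of a compound known by the code name E9 and labelled as a proteasome activator, the epoxomicin group with 0.5 µM epoxomicin, which inhibits the proteasome, and the DMSO group with the vehicle. All 3 groups then spent 3 days on immobilized antibodies to CD3 and CD28 at 5 µg/ml with IL-2 in the medium, so the DMSO cells were activated cells and no resting cells were included. The CD8+ cells had been separated with an isolation kit, and the design text describes them as CD8+CD44+ cells in biological duplicate. Animals and culture days are not assigned to single arrays, so with 2 arrays a group every error below measures the spread between these arrays only.

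The deposited intensities are on a linear scale in arbitrary units, and a probe counted as detected above a limit of 34.5. Intensities are compared between groups for the same probe, never between probes. Differences are on the log2 scale after background correction with an offset of 50, which makes them smaller than the log2 of the plain ratio, above all for dim probes. They carry the standard error (SE) of a limma fit of the 3 groups. A gene passed at a Benjamini-Hochberg adjusted p under 0.05 over all genes. The share of all genes that passed was 7.52% higher and 7.61% lower for E9 minus DMSO, 0.710% higher and 0.547% lower for epoxomicin minus DMSO, and 6.62% higher and 6.00% lower for E9 minus epoxomicin. The CD8 label was borne out by Cd8b1, the CD8 beta chain, at 7588 and 7516 with E9, 4947 and 4863 with epoxomicin and 4753 and 4901 with DMSO. The probe of Cd8a was dim, between 36.5 and 48.5 on the 6 arrays, and that of Cd4 was at the limit, between 32.2 and 37.

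The genes of the family lie next to each other in 1 cluster on chromosome 6, which spans 123.7 kb in the RefSeq annotation of GRCm38.p6 (chr6:48647186-48770851). Their order from the low coordinate is Gimap8, Gimap9, Gimap4, Gimap6, Gimap7, Gimap1, Gimap5 and Gimap3, with Gimap6 and Gimap3 on the minus strand and the others on the plus strand. The promoters of 3 neighbours are shown because these genes had different values with E9. Gimap7 and Gimap6 were higher with E9 than with DMSO, and Gimap1, which comes next after Gimap7, differed by less than its error. Each sequence is the 250 bases before the RefSeq start of the gene, given 5′ to 3′ on the gene's own strand. The windows are chr6:48718371-48718620 for Gimap7 on the plus strand, chr6:48708245-48708494 for Gimap6 on the minus strand and chr6:48738797-48739046 for Gimap1 on the plus strand. Capitals mark GGAAG or its reverse complement. GGAAG is a longer form of GGAA, the core recognised by ETS factors, a family to which the T cell factor Ets1 belongs. Other GGAA sites in the windows are not marked or counted.
Gimap7: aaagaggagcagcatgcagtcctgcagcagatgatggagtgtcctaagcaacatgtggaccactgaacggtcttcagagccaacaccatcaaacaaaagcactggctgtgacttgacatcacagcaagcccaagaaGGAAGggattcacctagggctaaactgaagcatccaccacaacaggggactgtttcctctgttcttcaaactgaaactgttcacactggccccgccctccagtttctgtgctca
Gimap6: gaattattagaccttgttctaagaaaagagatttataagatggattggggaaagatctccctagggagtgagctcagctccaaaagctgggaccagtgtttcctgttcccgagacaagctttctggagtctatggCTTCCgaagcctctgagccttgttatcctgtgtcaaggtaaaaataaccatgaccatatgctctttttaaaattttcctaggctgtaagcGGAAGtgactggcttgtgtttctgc
Gimap1: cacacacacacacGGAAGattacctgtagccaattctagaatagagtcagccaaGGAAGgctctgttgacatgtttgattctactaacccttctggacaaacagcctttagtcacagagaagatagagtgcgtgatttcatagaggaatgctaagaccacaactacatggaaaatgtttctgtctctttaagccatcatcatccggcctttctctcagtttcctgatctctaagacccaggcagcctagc

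Positions are counted back from the gene start, with -1 for the base just before it, and give the first base of a match. The searched form GGAAG stood once in the Gimap7 window, at -114. In the Gimap6 window it stood at -115 and -25, and in the Gimap1 window at -237 and -196. On either strand it was present in at least 1 window of each of the 8 genes, and in 64.1% of the 32851 promoter windows of all genes in the same table, so it is a common sequence. The KLF motif CACCC, held by 52.0% of all windows, was found in windows of Gimap8, Gimap9, Gimap4, Gimap5 and Gimap3 and not in those of Gimap6, Gimap7 and Gimap1. The RUNX motif TGTGGT, held by 14.0% of all windows, was found for Gimap4, Gimap7 and Gimap1. The STAT motif TTCNNNGAA, held by 7.0%, was found for Gimap6 and in 1 window of Gimap8, and the core of the interferon-stimulated response element, GAAANNGAA, held by 7.1%, for none. An E-box, CANNTG, is held by 66.2% of all windows, and the windows of Gimap1 and Gimap3 lacked it. These matches describe the letters of the windows, and no motif searched was held by all the genes higher with E9 and by none of the others.

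**Figure D1:**
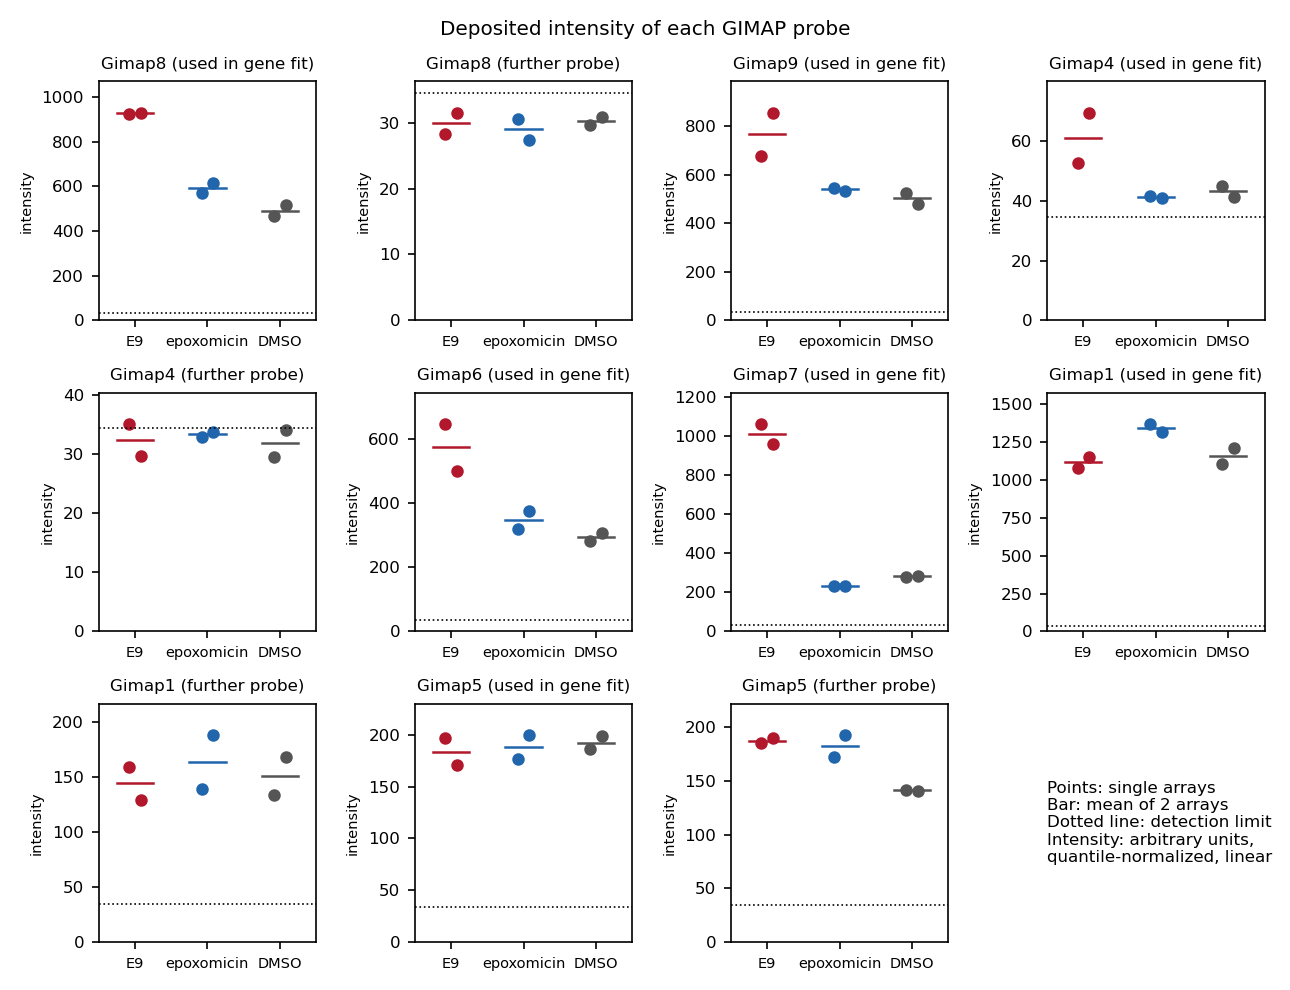
Deposited intensity (linear, arbitrary units) of each of the 11 GIMAP probes on the 6 arrays, in panels ordered along the chromosome. Points are single arrays, bars are means of 2 arrays, and the dotted line is the detection limit of 34.5. Gimap7 stands at 1062 and 959.7 with E9 and at most 284.2 in the other groups, while the Gimap1 probes and the Gimap5 probe used in the fit show no such step.

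Gimap7, whose product is a GTPase that also speeds GTP hydrolysis by other family members in biochemical work on the human proteins, had the largest difference of the family. Its intensity was 1062 and 959.7 with E9, 231.8 and 230.9 with epoxomicin and 278.3 and 284.2 with DMSO. Both E9 arrays lay far above the other 4, and the 3 groups did not overlap. The mean with E9 was 3.60 times that with DMSO and 4.37 times that with epoxomicin. The log2 difference was 1.75 ± 0.069 (SE) for E9 minus DMSO, with an interval of 1.60 to 1.91 at 95%, and 2.01 ± 0.069 (SE) for E9 minus epoxomicin. These differences ranked 15 and 8 from the top among the 13524 genes. With epoxomicin the gene stood slightly below DMSO, at -0.26 ± 0.069 (SE) with an interval of -0.41 to -0.10, and it did not pass after adjustment.

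Gimap6, whose product binds the ATG8 protein GABARAPL2 and is linked to autophagy, is the neighbour of Gimap7 on the opposite strand. Its intensity was 647.5 and 499.8 with E9, 319.8 and 374 with epoxomicin and 282.7 and 306.8 with DMSO. The 2 E9 arrays differed from each other more than those of the other groups did, but both lay above all others. The log2 difference was 0.89 ± 0.116 (SE) for E9 minus DMSO and 0.68 ± 0.116 (SE) for E9 minus epoxomicin. For epoxomicin minus DMSO it was 0.22 ± 0.116 (SE), and the interval of -0.05 to 0.48 includes 0.

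Gimap8, the first gene of the cluster, encodes a long family protein with several GTP-binding domains. One of its probes read 923.4 and 930 with E9, 572.3 and 615.8 with epoxomicin and 466.9 and 515.7 with DMSO. The groups did not overlap and stood in the order E9, epoxomicin, DMSO. The log2 difference was 0.88 ± 0.072 (SE) for E9 minus DMSO, 0.26 ± 0.072 (SE) for epoxomicin minus DMSO and 0.62 ± 0.072 (SE) for E9 minus epoxomicin. The further probe of Gimap8 was at most 31.5 and under the detection limit on all 6 arrays, so it gave no measurement to set beside the other.

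Gimap9, the second gene of the cluster, read 679.2 and 855.7 with E9, 545.4 and 534.7 with epoxomicin and 525.5 and 480.6 with DMSO. Both E9 arrays were above the rest, and the gap between the nearest epoxomicin and DMSO arrays was smaller than the difference between the 2 DMSO arrays. The log2 difference was 0.58 ± 0.101 (SE) for E9 minus DMSO, 0.10 ± 0.101 (SE) for epoxomicin minus DMSO and 0.48 ± 0.101 (SE) for E9 minus epoxomicin. Without E9 replicate 2, the brighter of the E9 arrays, the difference of Gimap9 between E9 and epoxomicin was 0.32.

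Gimap4 encodes a GTPase of mature T cells that has been linked to the execution of apoptosis. Its detected probe was dim, at 52.6 and 69.5 with E9, 41.5 and 41 with epoxomicin and 45.1 and 41.2 with DMSO. The E9 arrays were the highest, and the other 4 arrays lay close together just above the limit. The log2 difference was 0.33 ± 0.091 (SE) for E9 minus DMSO, -0.04 ± 0.091 (SE) for epoxomicin minus DMSO and 0.37 ± 0.091 (SE) for E9 minus epoxomicin. The size of the Gimap4 value depended on the background correction and on 1 array: for E9 minus DMSO it was 0.58 with an offset of 16, 0.49 with no background correction and 0.19 without E9 replicate 2. Without that array the value for E9 minus epoxomicin was 0.23. The call of Gimap4 for E9 minus DMSO held in 6 of 15 alternatives. A further Gimap4 probe was above the limit on 1 of 6 arrays and was left out of the fit.

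Gimap1, needed for the development and survival of mature lymphocytes in mice, was bright and differed little between the groups. It read 1080 and 1156 with E9, 1373 and 1319 with epoxomicin and 1104 and 1213 with DMSO. The E9 and DMSO arrays overlapped, whereas both epoxomicin arrays were higher than the rest. The log2 difference was -0.05 ± 0.073 (SE) for E9 minus DMSO, with an interval of -0.21 to 0.11, and 0.21 ± 0.073 (SE) for epoxomicin minus DMSO. For E9 minus epoxomicin it was -0.26 ± 0.073 (SE), a call that held in 3 of 15 alternatives. The further probe, listed under the old name Imap38, overlapped between all groups, with differences of -0.05, 0.10 and -0.15 in the same order and an SE of 0.136 each.

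Gimap5, the member whose loss depletes T cells, was measured by a pair of probes that did not give the same result. The probe used in the fit read 196.3 and 170.4 with E9, 176.5 and 199.9 with epoxomicin and 185.9 and 198.7 with DMSO, and the groups overlapped. Its log2 difference was -0.06 ± 0.084 (SE) for E9 minus DMSO, with an interval of -0.25 to 0.13, and -0.03 ± 0.084 (SE) for epoxomicin minus DMSO. The further probe read 184.9 and 189.2 with E9, 171.8 and 192.6 with epoxomicin and 141.4 and 140.4 with DMSO. On that probe both treated groups lay above both DMSO arrays, by 0.35 ± 0.069 (SE) for E9 and 0.32 ± 0.069 (SE) for epoxomicin, and the treated groups overlapped each other. Whether the pair detects different transcripts, or also RNA of the related Gimap3, was not tested, since the probe sequences were not used here.

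Across the family, 5 of 7 measured genes passed as higher for E9 minus DMSO, namely Gimap4, Gimap6, Gimap7, Gimap8 and Gimap9, and 0 passed as lower, in limma also at an unadjusted p under 0.05. All 5 were also higher for E9 minus epoxomicin, where Gimap1 passed as lower and Gimap5 did not pass. The comparisons share the E9 arrays, and the counts stand beside 7.52% of all genes higher for E9 minus DMSO and 6.62% for E9 minus epoxomicin. For epoxomicin minus DMSO limma called 0 of 7, while 2 higher and 1 lower had an unadjusted p under 0.05, as had 11.2% of all genes in either direction. The median difference of the 7 genes was 0.58 for E9 minus DMSO, 0.10 for epoxomicin minus DMSO and 0.48 for E9 minus epoxomicin, against -0.006, 0.002 and -0.008 over all genes. Because the family was selected on these arrays, nothing is read from these counts. In bulk RNA, fewer cells of a type and less RNA per cell cannot be told apart.

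**Figure D2:**
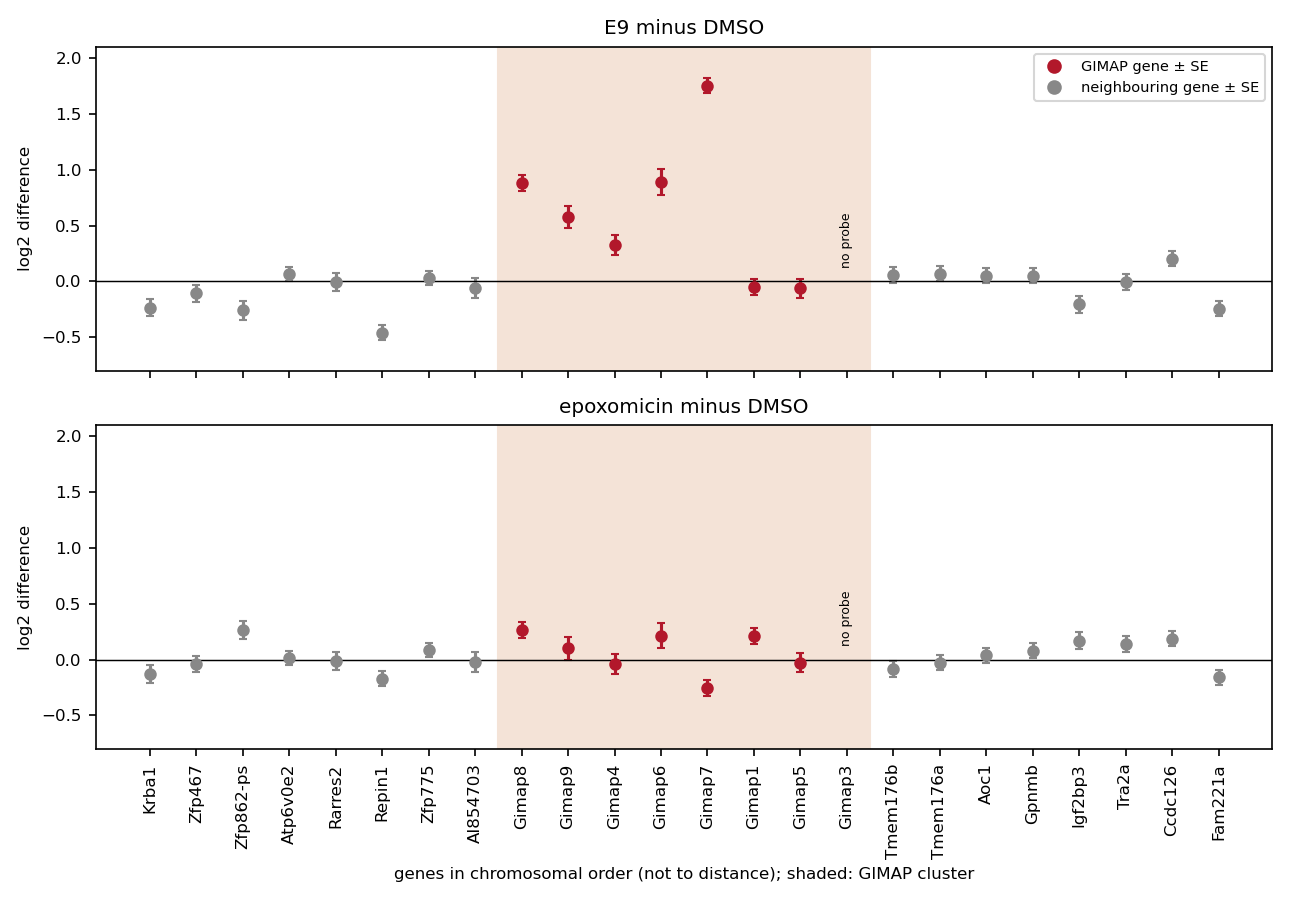
Log2 difference with its SE (bars) for each GIMAP gene (red, shaded) and for 8 tested genes on either side (grey), in chromosomal order and not to distance, for E9 minus DMSO (top) and epoxomicin minus DMSO (bottom). With E9 the values run from 0.33 to 1.75 between Gimap8 and Gimap7 and lie near 0 for Gimap1 and for the Gimap5 probe used in the fit. With epoxomicin all GIMAP values lie between -0.26 and 0.26.

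On the probes used in the fit, the genes higher with E9 were neighbours on the chromosome, from Gimap8 through Gimap9, Gimap4 and Gimap6 to Gimap7, on both strands, as the plot in chromosomal order shows. The next gene, Gimap1, starts 14.41 kb beyond the end of Gimap7. This order depends on the probe chosen for Gimap5, since its further probe was higher with E9 by 0.35 ± 0.069 (SE), more than the 0.33 of Gimap4, and Gimap3, the last gene, was not measured. Outside the cluster, the 8 nearest tested genes on each side were compared in the same fit. Of these 16 genes, 0 rose and 2 fell with E9 by limma, beside 7.52% and 7.61% of all genes. At an unadjusted p under 0.05 in limma, 1 rose and 5 fell, beside 26.5% of all genes in either direction. Their median difference was -0.004. Of the neighbours, Zfp775, Atp6v0e2, Zfp467, Tmem176b, Tmem176a, Aoc1 and Gpnmb were dim, at most 43.7 on any array. The offset makes differences of such probes smaller, so their values say little. Repin1, a zinc finger gene, fell by 0.46 ± 0.068 (SE, adjusted p = 0.0015), and Fam221a fell by 0.24 ± 0.069 (SE, adjusted p = 0.0414) on the log2 scale. The nearest tested genes were AI854703, 13.5 kb before the cluster, at -0.06 ± 0.088 (SE), and the dim Tmem176b, 63 kb beyond it, at 0.06 ± 0.073 (SE). Neither passed, and genes without a kept probe may lie closer. With epoxomicin 0 of the 16 neighbours passed in limma, with 2 higher and 2 lower at an unadjusted p under 0.05.

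The genes whose profile over the 6 arrays was most like that of a member were found by the Euclidean distance between centred log2 values. Those closest to Gimap7 were Cox6a2 (distance 0.352), a subunit of cytochrome c oxidase, Casp6 (0.395), an executioner caspase, and Tgm2 (0.417), a transglutaminase. Their differences for E9 minus DMSO were 1.94, 1.74 and 1.57, and for epoxomicin minus DMSO 0.007, -0.03 and -0.52. Gimap8 was closest to Arhgap45 (0.102), a GTPase-activating protein, Klre1 (0.109), a lectin-like receptor, and Ypel3 (0.132). Gimap6 was closest to Fcgrt (0.154), the neonatal Fc receptor, Rasal3 (0.173), a Ras GTPase-activating protein, and Ppp3cc (0.182), a catalytic subunit of calcineurin. The genes nearest to Gimap9 were Selenop (0.06), which encodes a selenium transport protein, A130010J15Rik (0.115) and Cd96 (0.134), a lymphocyte receptor. For the dim Gimap4 they were S100a8 (0.083), Ifit3b (0.085) and N4bp1 (0.096). Gimap1 and Gimap5 varied little, and their nearest genes, Ap4s1, Iscu and Cnot2 for Gimap1 and Sumf2, Cdk20 and 2010001H16Rik for Gimap5, lay within 0.083 and 0.053. Distances over 6 arrays in 3 groups describe how alike the centred values are on these arrays and nothing more.

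**Figure D3:**
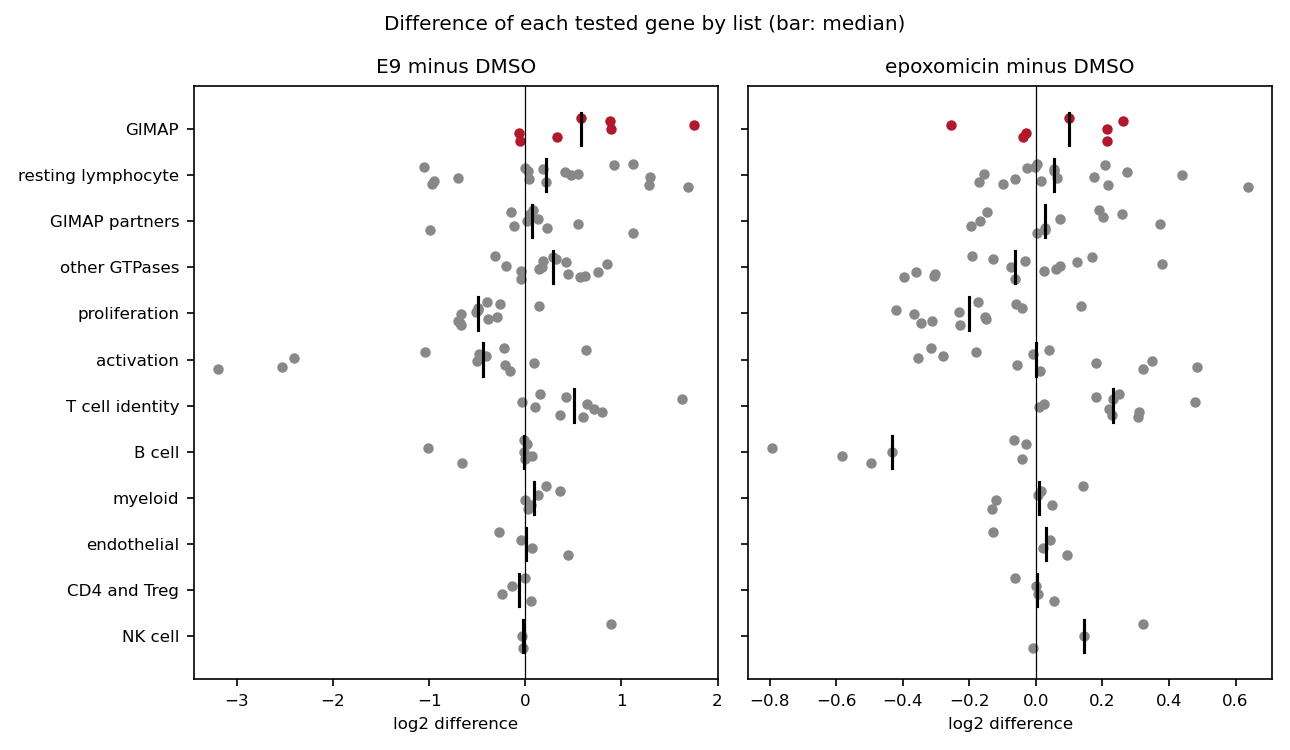
Log2 difference of each tested gene of the GIMAP family (red) and of the other lists (grey points), with the list median as a black bar, for E9 minus DMSO (left) and epoxomicin minus DMSO (right); the horizontal scales differ. The GIMAP median is 0.58 with E9 and 0.10 with epoxomicin, and the activation list reaches -3.20 with E9.

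Genes of resting lymphocytes, which T cells tend to switch off on activation, were set beside the family. This list and those below were chosen with earlier results of these data known. Their counts and p-values are therefore description and not support. Of 20 genes on the list, 17 were tested, and with E9 8 rose and 4 fell, beside 7.52% and 7.61% of all genes, with a median of 0.22. Klf2, a transcription factor of quiescent T cells, read 298.9 and 358.4 with E9, 145.5 and 143.4 with epoxomicin and 80.7 and 86.7 with DMSO. Its groups did not overlap, and it rose both with E9, by 1.69 ± 0.085 (SE, adjusted p = 1.88e-06), and with epoxomicin, by 0.64 ± 0.085 (SE, adjusted p = 0.00966). Il7r, the receptor chain for the survival cytokine IL-7, read 389.6 and 412.4 with E9, 185.6 and 169.9 with epoxomicin and 145.9 and 152.9 with DMSO. It rose with E9 by 1.29 ± 0.07 (SE, adjusted p = 3.06e-06) and was 0.22 ± 0.07 (SE, adjusted p = 0.243) for epoxomicin minus DMSO. Satb1, a chromatin organizer of T cells, also rose with E9 (1.30 ± 0.086, SE, adjusted p = 9.9e-06). The list did not move as a whole: Slfn2, Ccr7, Foxp1 and Bach2 fell with E9, by 1.05, 0.97, 0.94 and 0.69. With epoxomicin Klf2 and Cd27, a costimulatory receptor, rose, with Cd27 at 0.44 ± 0.079 (SE, adjusted p = 0.0313), and 0 genes fell. This stands beside 0.710% of all genes higher and 0.547% lower. At an unadjusted p under 0.05 in limma, 5 genes of the list rose and 0 fell with epoxomicin. The probe of S1pr1 was too dim to test.

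**Figure D4:**
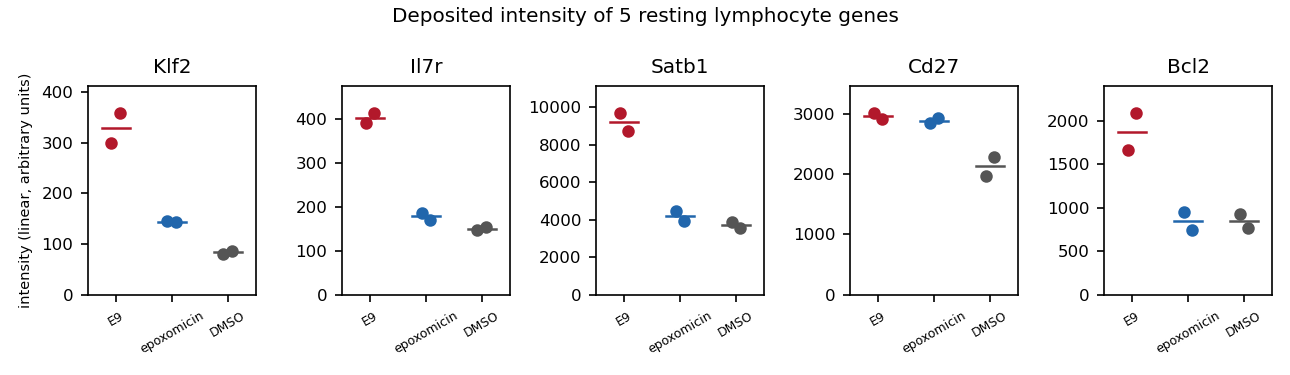
Deposited intensity (linear, arbitrary units) of Klf2, Il7r, Satb1, Cd27 and Bcl2 on the 6 arrays; points are single arrays and bars are means of 2 arrays. Klf2 stands at 298.9 and 358.4 with E9 and between 80.7 and 145.5 in the other groups, and Cd27 is high in both treated groups.

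Partners and relatives of the family gave mixed values. Of 11 tested genes of the BCL2 family and of autophagy, 2 rose and 1 fell with E9, beside 7.52% and 7.61% of all genes. Their median was 0.07. Bcl2, which protects cells from apoptosis, read 1661 and 2085 with E9, 946.6 and 746.2 with epoxomicin and 925.2 and 760.8 with DMSO, and it rose with E9 by 1.13 ± 0.139 (SE, adjusted p = 0.000489). Bcl2l1, which encodes the protective BCL-XL, fell with E9 by 0.99 ± 0.063 (SE, adjusted p = 8.48e-06), and Bcl2l11, which encodes the pro-apoptotic BIM, rose by 0.55 ± 0.075 (SE, adjusted p = 0.00093). The Gimap6 partner Gabarapl2 was at 0.14 ± 0.11 (SE, adjusted p = 0.52) and the kinase gene Gsk3b, linked to Gimap5 in mouse T cells, at 0.02 ± 0.094 (SE, adjusted p = 0.945). With epoxomicin limma called 0 of these 11 genes, with 3 higher and 1 lower at an unadjusted p under 0.05.

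Other GTPases and their regulators were taken as a second set of GTP-binding proteins. Of 15 tested genes, 6 rose and 1 fell with E9, beside 7.52% and 7.61% of all genes, with a median of 0.29. They included Arhgdib, a regulator of small GTPases in blood cells, which rose with E9 by 0.85 ± 0.069 (SE, adjusted p = 3.64e-05) and with epoxomicin by 0.38 ± 0.069 (SE, adjusted p = 0.0335). Tgtp1, which encodes an interferon-inducible GTPase, rose with E9 by 0.75 ± 0.074 (SE, adjusted p = 0.00012), and Igtp, which encodes another, by 0.62 ± 0.082 (SE, adjusted p = 0.000713). Ifi47, also of an interferon-inducible GTPase, rose by 0.44 ± 0.102 (SE, adjusted p = 0.0162). Irgm1 and Mx2, of the same kind, did not pass, at -0.04 ± 0.078 (SE, adjusted p = 0.818) and -0.05 ± 0.076 (SE, adjusted p = 0.793). Mx2 was dim, between 35.4 and 43.3 on the 6 arrays, so its value says little. Iigp1 and Mx1 were too dim to test. Irgm2 rose with E9 by 0.57 ± 0.076 (SE, adjusted p = 0.00076) and fell with epoxomicin by 0.40 ± 0.076 (SE, adjusted p = 0.0417). Over all genes, 170 passed for epoxomicin minus DMSO, and 1 to 29 did when 1 array of epoxomicin or DMSO was left out, with the low of 1 without epoxomicin replicate 2.

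Most of the tested activation and division genes were lower with E9. Of 12 tested activation genes, 1 rose and 7 fell with E9, beside 7.52% and 7.61% of all genes, with a median of -0.44. Il2, the T cell growth factor, read 57.2 and 65 with E9, 945.5 and 992.3 with epoxomicin and 792.8 and 748.8 with DMSO, a difference of -3.20 ± 0.072 (SE, adjusted p = 4.8e-08) for E9 minus DMSO. Ifng fell by 2.53 ± 0.125 (SE, adjusted p = 1.76e-06), and so did the costimulatory receptor gene Tnfrsf4, by 2.40 ± 0.119 (SE, adjusted p = 1.76e-06). Cd44, a surface marker of activated cells, was the 1 gene of this list that rose with E9. Il2ra, Cd69, Myc and Batf did not pass, at -0.16, 0.09, -0.21 and -0.22 for E9 minus DMSO. Of 12 tested proliferation genes, 9 fell and 0 rose with E9, beside 7.61% and 7.52% of all genes. In limma 0 rose at an unadjusted p under 0.05 too. Of the proliferation genes Cdk1 fell by 0.70, Top2a by 0.67 and Mki67 by 0.67. With epoxomicin limma called 0 activation genes, with 4 higher and 3 lower at an unadjusted p under 0.05. It called 1 proliferation gene, beside 0.547% of all genes lower. This was the spindle gene Tpx2, which fell by 0.42 ± 0.071 (SE, adjusted p = 0.026). Whether the GIMAP values are tied to the differences of these activation and division genes was not tested.

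Markers of T cells and of other cells moved in part with the groups. Of 10 tested T cell genes, 7 rose with E9 and 0 fell, beside 7.52% and 7.61% of all genes. In limma the counts of the list were the same at an unadjusted p under 0.05, beside 26.5% of all genes in either direction. Cd2 rose by 1.63 ± 0.074 (SE, adjusted p = 1.06e-06), Cd247 by 0.71 ± 0.07 (SE, adjusted p = 0.000114) and Cd8b1 by 0.64 ± 0.062 (SE, adjusted p = 0.000103). With epoxomicin Zap70 rose by 0.48 ± 0.065 (SE, adjusted p = 0.0103). The summed intensity of the 10 genes was 27595 and 28950.1 with E9, 22933 and 22658 with epoxomicin and 19612 and 19663 with DMSO. Of 7 tested B cell genes, 2 fell with E9 (Cd79b and H2-Ab1), beside 7.61% of all genes. With epoxomicin 4 fell, among them H2-Ab1, Cd74 and Cd79b, beside 0.547% of all genes. The sum of the 7 B cell genes was 357.8 to 376.9 with E9, 310.6 to 336.6 with epoxomicin and 479.5 to 515.9 with DMSO. It was lower in both treated groups. Apart from Cd79b and H2-Ab1, the tested B cell genes lay between -0.02 and 0.07 for E9 minus DMSO. These were Cd74, H2-Aa, H2-Eb1, Ms4a1 and Pax5, of which H2-Eb1, Ms4a1 and Pax5 were close to the detection limit. The list median was -0.014 for E9 minus DMSO and -0.433 for epoxomicin minus DMSO. Of 3 tested NK cell genes, 1 rose with E9, beside 7.52% of all genes. It was Eomes, which activated CD8+ T cells also express (0.89 ± 0.087, SE, adjusted p = 0.000112). The NK sum was 1506 to 1700.1 with E9, 1082 to 1124 with epoxomicin and 835.6 to 943 with DMSO. Most of this sum was Eomes, at 1429.4 and 1627.2 with E9 and 865.5 and 758.1 with DMSO. For E9 minus DMSO, Klrb1c was at -0.03 ± 0.064 (SE) and Klrk1 at -0.03 ± 0.067 (SE), and neither passed. Both probes were dim, with Klrb1c between 32.9 and 36.4 and Klrk1 between 40 and 52.2 over all arrays. The values of Klrb1c and Klrk1 therefore say little about NK cells. Ncr1, a defining NK gene, was too dim to test. The part of these cells in the GIMAP values was not tested.

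Of 6 tested myeloid genes, S100a8 alone passed with E9, at 37.7 and 47.2 with E9 and under the limit with epoxomicin and with DMSO. It met the filter only through its 2 E9 arrays, so its call is description and not support. The myeloid sum was 243 to 252.2 with E9, 200.2 to 222.3 with epoxomicin and 206.7 to 218.1 with DMSO. Every probe in it was dim, at most 51.8 on any array, so this sum says little about myeloid cells. Cd14, Itgam, S100a9 and Tyrobp were too dim to test. Of 4 tested endothelial genes, Pecam1, which T cells also express, rose with E9 by 0.44 ± 0.089 (SE, adjusted p = 0.0089). The endothelial sum overlapped between the groups, at 299.8 to 367.4 with E9, 336.2 to 339.1 with epoxomicin and 328.9 to 379.8 with DMSO. Most of this sum was Egfl7, between 172.6 and 263.1 on the 6 arrays. Cdh5, Tie1, Emcn and Vwf were too dim to test. Of 4 tested genes of CD4+ and regulatory T cells, Foxp3 fell with E9 by 0.24 ± 0.069 (SE, adjusted p = 0.0422). The sum of the list was 352.3 to 384.9 with E9, 421.4 to 427.7 with epoxomicin and 419.5 to 428.3 with DMSO. Most of this sum was Foxp3, at 274.4 and 246.8 with E9 and 315.4 and 310.7 with DMSO. Cd4, Zbtb7b and Ikzf2 were close to the detection limit, between 29.5 and 41.9. The calls of S100a8, Pecam1 and Foxp3 stand beside 7.52% of all genes higher and 7.61% lower for E9 minus DMSO. With epoxomicin limma called 0 genes of the myeloid, endothelial, CD4+ and NK lists, where 1 NK gene had an unadjusted p under 0.05. No erythroid gene could be tested. Whether myeloid or regulatory T cells contributed to the GIMAP values was not tested.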

How the data were processed

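Total RNA of CD8+ T cells was measured on 6 Illumina arrays, in E9, epoxomicin and DMSO groups of 2, grouped by the sample titles. The values were the authors' deposited intensities, on a linear scale; the sorted columns are identical, so the table had been quantile-normalized and a change in total RNA cannot be seen. Depth does not apply; 2 arrays a group limit the precision. Scanner software and background handling are not given in the sources used here. A further deposited table of non-normalized values has 6 value columns whose names match no sample label and was not used, so the detection p-values foreseen in the design were lacking.

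Background was estimated from the deposited intensities: their mode was 30.7, values under the mode had an SD of 2.34, and the detection limit was set at 34.5. Intensities were corrected with normexp (offset 50) and turned into log2 values. Of 45281 probes, 35784 carried 1 symbol and 9497 none; 33385 symbols were matched to RefSeq and 2399 kept as on the array. Probes above the limit on at least 2 arrays were kept, and the brightest of a gene was used, which left 13524 genes. Genes were fitted with limma 3.58.1 in R 4.3.3 (lmFit and eBayes, 3 residual and 6.32 prior degrees of freedom) with Benjamini-Hochberg adjustment within each comparison. The procedure was tested on simulated data. Figures were drawn with matplotlib 3.10.9 in Python 3.11.15. Between the 2 arrays of a group, r across genes was 0.9963 to 0.9977, and genes are not independent replicates.

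The members and all lists were chosen with earlier results of these data known. The text names every member, the 3 most alike genes of each, up to 3 genes a list and comparison with the smallest p among those past the threshold, the 8 nearest tested genes on each side of the cluster as counts, and Klf2, Il7r, S1pr1 and Bcl2; a further gene of that rule is not reported here. The further list genes Slfn2, Ccr7, Foxp1, Bach2, Gabarapl2, Gsk3b, Irgm1, Mx2, Cd44, Cd8a and Cd4, and the examples among the neighbours, were named after their values were seen. So were Il2ra, Cd69, Myc, Batf, H2-Aa, H2-Eb1, Ms4a1, Pax5, Klrb1c, Klrk1, Ifi47, Zbtb7b, Ikzf2 and Egfl7. Promoter sequences are those of RefSeq (GRCm38.p6). Results were recomputed without background correction, with an offset of 16, without a filter and with a stricter one, with the mean of all kept probes, with the compared groups alone, with the replicate number as a block, with eBayes in its trend and robust form, at a 2-fold threshold and without each array in turn; a fit of all kept probes and the other kept probe of a gene were added after seeing the data. Relatedness of the proteins was planned and is not analysed here.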

Additional observations from a re-analysis of the deposited data

How the results depend on the processing

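Gimap7 passed for E9 minus DMSO and for E9 minus epoxomicin in all 15 alternatives, and Gimap6, Gimap8 and Gimap9 passed for E9 minus DMSO in 14 of 15, failing the 2-fold threshold. That threshold left 165 genes for E9 minus DMSO, 4 for epoxomicin minus DMSO and 164 for E9 minus epoxomicin, against 2046, 170 and 1706, and 1, 0 and 1 GIMAP genes. Leaving out 1 array gave 1228 to 1878 genes for E9 minus DMSO (1311 without DMSO replicate 1 and 1228 without DMSO replicate 2), 1 to 238 for epoxomicin minus DMSO and 938 to 1608 for E9 minus epoxomicin (941 without epoxomicin replicate 1 and 938 without epoxomicin replicate 2). The GIMAP genes called were then 4 to 5, 0 and 2 to 5. In E9 minus epoxomicin the call of Gimap6 was lost without epoxomicin replicate 1, and that of Gimap9 without either epoxomicin array. The cause was not tested, although each such fit holds fewer arrays. With the replicate number as a block, 91 genes passed for epoxomicin minus DMSO, 1760 for E9 minus DMSO and 1413 for E9 minus epoxomicin, with 0, 4 and 4 GIMAP genes. Deviations of same-numbered arrays correlated at -0.203 (E9 and epoxomicin), -0.317 (E9 and DMSO) and 0.214 (epoxomicin and DMSO). The labels do not say whether same-numbered arrays shared animals or culture days. With 2 arrays a group, these correlations cannot decide it. No called GIMAP value changed its sign. The dim Gimap4 probe, close to the detection limit, is the least certain of the family, and Gimap5 was not called by the probe used, whose value for E9 minus DMSO was -0.06, against 0.35 for its other kept probe and 0.15 for the mean of both.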
